A study of Mus musculus with 2 samples.

Results

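The interferon-induced transmembrane (IFITM) genes were examined in S100A4-positive and S100A4-negative cells from Peyer's patches, lymphoid tissue in the wall of the mouse small intestine. The members were the genes Ifitm1, Ifitm2, Ifitm3, Ifitm5, Ifitm6 and Ifitm7, taken by the gene name that the array files give each non-control probe, and the family was chosen by the difference in signal between the 2 arrays, which is therefore given as a description. Of these 6 genes, 5 were represented, by 6 of the 56605 non-control probes, and the expression of Ifitm2 was not analysed here, since no probe of that name was used. The S100A4-positive group was 1 sample of cells sorted for the green fluorescent reporter of S100A4-GFP transgenic C57BL/6 mice, and the S100A4-negative group was 1 sample of cells of the same strain and transgene that lacked it. Both came from patches digested with dispase II, collagenase D and DNase I. S100A4 is a small calcium-binding protein, and the study asked how the 2 fractions differ in expression. The part of the S100a4 gene that drives the reporter, the age and number of mice and the sort gates are not given in the sources used here. Each Cy3-labelled RNA had an array to itself, so there is no replicate, no test between groups and no p-value.

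IFITM proteins are small membrane proteins with a conserved CD225 domain that sit in the plasma membrane and in endosomes. Ifitm1, Ifitm2 and Ifitm3 are induced by type I interferon and interferon gamma, and their products hinder the fusion of enveloped viruses with host membranes, Ifitm3 chiefly in late endosomes. Ifitm5, also called Bril, is a gene of bone-forming osteoblasts, and Ifitm6 has been described in mouse macrophages.

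The probe sequences are shown because they bear on how far each value belongs to its gene. The probes of Ifitm1 and Ifitm3, at chr7:148155659-148155718 on the plus strand and chr7:148195489-148195548 on the minus strand (mm9 build), aligned over 48 bases with 39 identities, or 81.2%, and shared 14 bases in a row, the capitals in these 30-base stretches.
Ifitm1: tggtggacTCAATAAAGTGCACgtgctgtg
Ifitm3: cagtggatTCAATAAAGTGCACttgataac
Ifitm7 had 2 probes on chromosome 16, both on the minus strand. The one at chr16:13983746-13983805 is called here the repeat-free probe, because it holds no simple repeat. It aligned with the Ifitm5 probe, at chr7:148135949-148136008 on the minus strand, over 52 bases with 36 identities, and the capitals mark their longest shared run of 8 bases. It also aligned with a probe of Ifitm10, a relative outside the interferon-induced group, over 45 bases with 34 identities.
Ifitm7: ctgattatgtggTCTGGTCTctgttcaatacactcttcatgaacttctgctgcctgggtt
Ifitm5: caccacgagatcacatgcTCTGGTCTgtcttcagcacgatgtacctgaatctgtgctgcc
The other Ifitm7 probe, at chr16:13982912-13982971, ends in a run of alternating T and G, in capitals here over its last 30 bases, and is called the repeat probe.
Ifitm7 repeat: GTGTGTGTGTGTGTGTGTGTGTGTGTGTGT
The Ifitm6 probe lies at chr7:148201714-148201773 on the minus strand. The exon or untranslated region of each probe was not analysed here, and whether any IFITM probe, those of Ifitm1 and Ifitm3 included, also captures transcripts of its relatives was not tested.

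Every IFITM probe without the repeat that was well above background was far brighter in the S100A4-positive cells. Ifitm6 read a processed signal of 9086 ± 909 in S100A4-positive cells and 53.3 ± 6.48 in S100A4-negative cells, where ± is the scanner software's error for a single spot. Ifitm1 read 8923 ± 892 in S100A4-positive cells and 177 ± 18.0 in S100A4-negative cells. Ifitm3, whose product acts in late endosomes, read 13431 ± 1343 in S100A4-positive cells and 352 ± 35.4 in S100A4-negative cells. The repeat-free probe of Ifitm7, the member that lies apart from the others on chromosome 16, gave 11631 ± 1163 in S100A4-positive cells and 350 ± 35.2 in S100A4-negative cells. On these 4 probes the ranges of signal and error did not overlap between the arrays. That describes the spots alone, because the family was chosen by this difference. The share of all probes without overlap was not counted here.

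**Figure D1:**
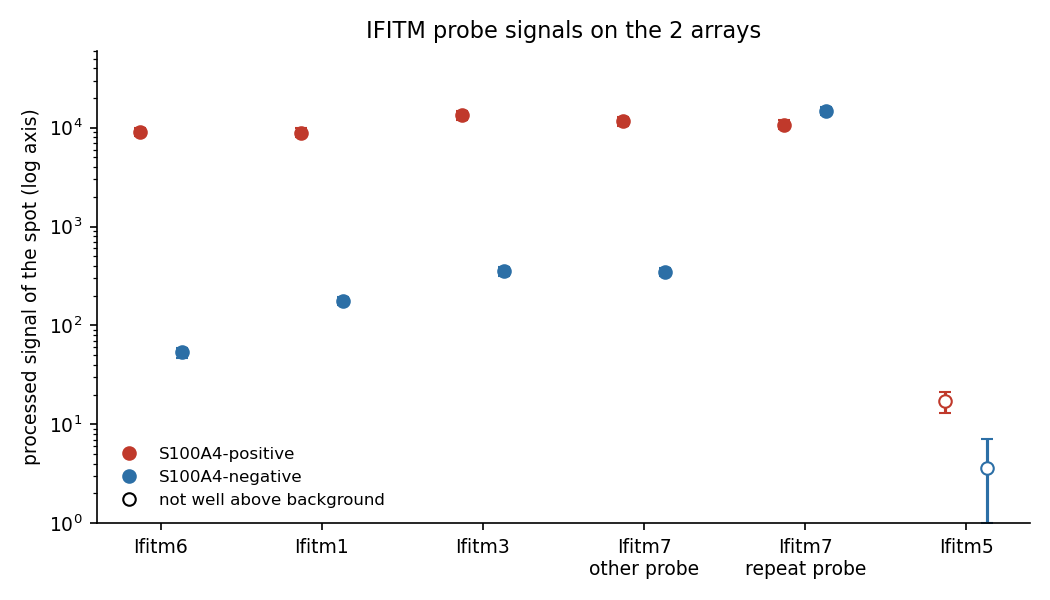
Processed signal (log axis) of each IFITM probe on the S100A4-positive (red) and S100A4-negative (blue) array, 1 array each, with the scanner software's error of the spot as bars; open circles are spots not well above background. The red points of Ifitm6, Ifitm1, Ifitm3 and the repeat-free ("other") probe of Ifitm7 lie between 8923 and 13431 and the blue ones between 53.3 and 352, while the repeat probe of Ifitm7 is bright on both arrays.

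After each array was centred on the 75th percentile of its non-control spots, the log2 difference of S100A4-positive minus S100A4-negative was 8.05 ± 0.23 for Ifitm6, a 265-fold higher signal. It was 6.29 ± 0.21 for Ifitm1 (78.1-fold), 5.89 ± 0.20 for Ifitm3 (59.2-fold) and 5.69 ± 0.20 for the repeat-free probe of Ifitm7 (51.6-fold). Among 25819 probes well above background on both arrays, these stood 9th, 67th, 94th and 117th from the top. For scale, the sorted marker's own gene S100a4 differed by 175-fold, with signals of 119341 in those and 1057 in S100A4-negative cells. Of the 25819 probes, 17.3% were at least 2-fold and 5.92% at least 4-fold higher in S100A4-positive cells, the background against which 4 of 5 measured IFITM probes past either size are to be read. By gene, with the brightest probe of each, 3 of 4 measured IFITM genes were at least 2-fold higher against 17.7% of 12970 genes measured on both arrays, and all 4 were when Ifitm7 was taken at its repeat-free probe.

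The 4 differences were not alike. Ifitm6 exceeded Ifitm1, the next in order, by 1.76 ± 0.31 on the log2 scale, 5.74 times the scanner error of that gap. Ifitm1 exceeded Ifitm3 by 0.40 ± 0.29 and Ifitm3 exceeded Ifitm7 by 0.20 ± 0.29, gaps of 1.38 and 0.69 times their error, so these neighbours in the order did not differ beyond 2 errors. Ifitm1 and Ifitm7 were 0.60 ± 0.29 apart, a gap of 2.06 times its error. The size for Ifitm6 rests on a dim spot on the S100A4-negative array, where its raw signal of 133 was 2.14 times the local background, against 137 times on the S100A4-positive array. For Ifitm1, Ifitm3 and Ifitm7 the raw signals on the S100A4-negative array were 4.36, 6.78 and 6.21 times the local background. With another background correction (normexp, offset 50), which lifts dim spots, the difference of Ifitm6 was 6.67, with 5.73 for Ifitm1, 5.62 for Ifitm3 and 5.56 for Ifitm7, so the order held and the lead of Ifitm6 was smaller.

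**Figure D2:**
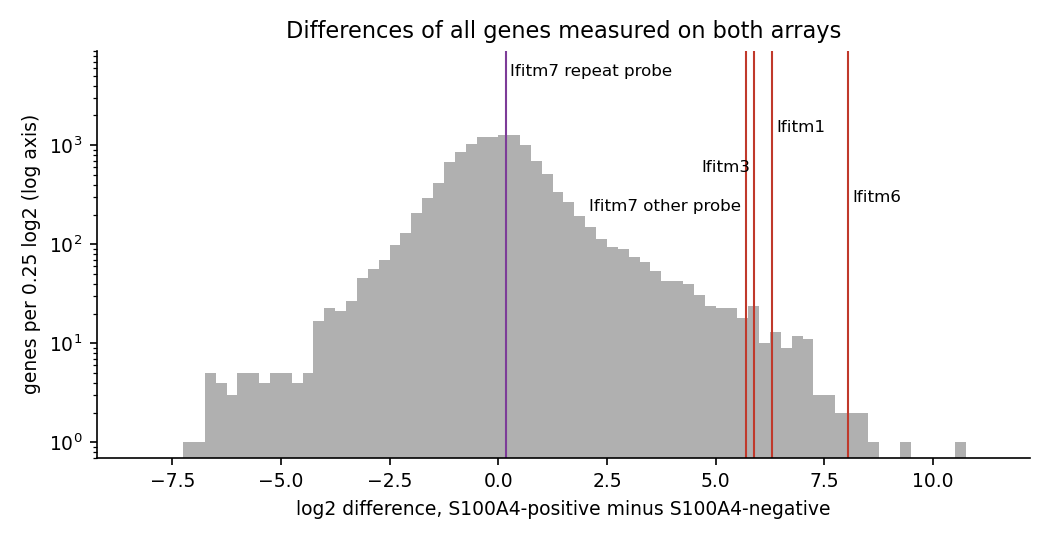
Number of genes (log axis) by log2 difference, S100A4-positive minus S100A4-negative, for the 12970 genes measured on both arrays, with vertical lines at the IFITM probes. The lines of Ifitm7 (repeat-free probe), Ifitm3, Ifitm1 and Ifitm6 stand at 5.69, 5.89, 6.29 and 8.05 in the upper tail, and that of the Ifitm7 repeat probe at 0.17 in the centre.

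The scale matters for the size of these differences and not for their direction. Spike-in control RNA was 3.69-fold brighter on the S100A4-positive array, and scaling on it moved every difference by -2.52, to 5.53 for Ifitm6, 3.77 for Ifitm1, 3.37 for Ifitm3 and 3.17 for Ifitm7. The RNA input to labelling was not analysed here, and neither scale is a level per cell. In bulk samples, fewer cells of a type and less RNA per cell cannot be told apart.

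Ifitm5, the osteoblast member, was not well above background on either array. Its spot read 17.0 ± 4.0 in S100A4-positive cells and 3.58 ± 3.59 in S100A4-negative cells, with raw signals 1.54 and 1.3 times the local background in the same order of arrays, and no fold is given. Of 5 osteoblast marker genes, Bglap, Ibsp and Dmp1 were not above background on either array, the osteoblast factor gene Sp7 was at 0.49, and Runx2 was at least 10.5-fold higher in S100A4-positive cells. The summed scaled signal of this list was 0.758 in S100A4-positive and 0.285 in S100A4-negative cells, in units of each array's 75th percentile.

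The repeat probe of Ifitm7 disagreed with the repeat-free probe of the same gene. It read 10768 ± 1077 in S100A4-positive cells and 14867 ± 1487 in S100A4-negative cells, a log2 difference of 0.17 ± 0.20 after centring, which is 5.52 ± 0.29 below that of the repeat-free probe. Among 5662 genes with at least 2 probes measured on both arrays, the gap between the lowest and the highest probe had a median of 0.60, and 7 genes (0.124%), Ifitm7 among them, had one as wide as this. The repeat probe is the brighter of the pair on average, so a rule that takes the brightest probe of a gene gives Ifitm7 a difference of 0.17.

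Probes with such repeats behaved alike whatever gene they were named for. All 69 probes with at least 8 TG units in a row, a definition chosen after the values were seen, were well above background on both arrays, against 25819 of 56605 probes in all. The other 68 had log2 differences from -0.12 to 0.83 with a median of 0.32 and a standard deviation across probes of 0.15, against 1.33 across all probes measured on both arrays. None of the 69 was 2-fold higher or lower, whereas 17.3% of all probes were 2-fold higher and 14.0% were 2-fold lower in S100A4-positive cells. Their median signal was 11653 in S100A4-positive and 14867 in S100A4-negative cells, against 252 and 386 for all probes measured on both arrays. The 308 probes of about the brightness of the Ifitm7 repeat probe ran from -0.91 to 1.59 between their 5th and 95th percentiles, a wider range than the repeat probes had. Of 26 genes with both a TG repeat probe and another measured probe, 11 had at least 1 other probe past 2-fold. By probe, 13 of the 51 other probes were past 2-fold either way, beside the 17.3% higher and 14.0% lower of all probes. The gap in Ifitm7 was the widest of the 26 genes. What the repeat contributes to the signal of the Ifitm7 probe was not tested.

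**Figure D3:**
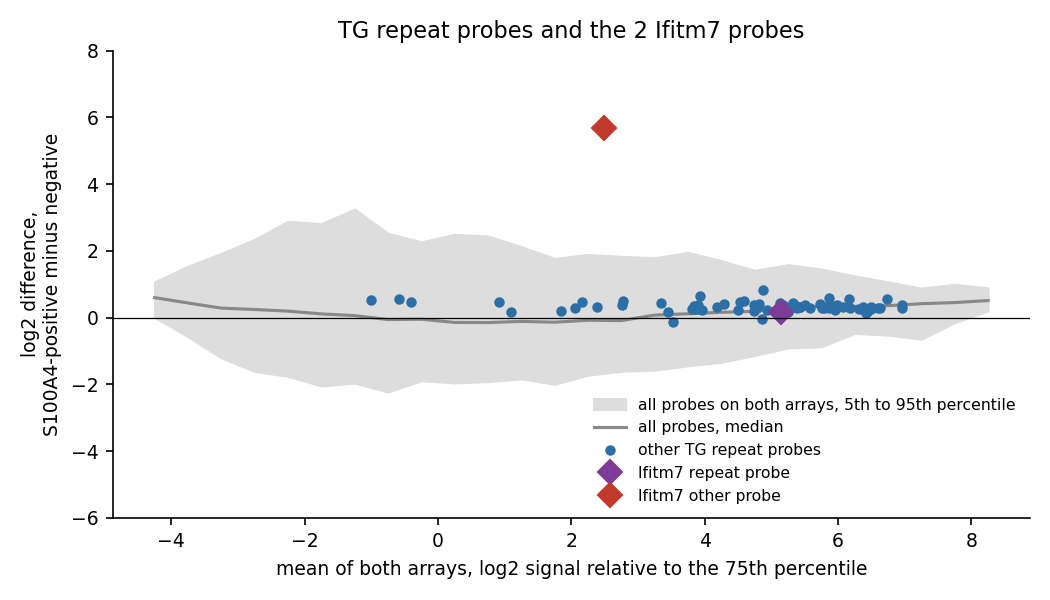
Log2 difference (S100A4-positive minus S100A4-negative) against mean log2 signal relative to the 75th percentile, for the 69 TG repeat probes and the repeat-free ("other") probe of Ifitm7; the grey band holds the 5th to 95th percentile of all probes at that brightness and the grey line their median. The repeat probes, that of Ifitm7 included, lie between -0.12 and 0.83, and the other Ifitm7 probe lies at 5.69, above the band.

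By position, Ifitm5, Ifitm1, Ifitm3 and Ifitm6 lie in this order within 65.8 kb of chromosome 7 (chr7:148135949-148201773, mm9 build), with no probe of another gene between them. Within 250 kb of either end, no probe of another gene measured on both arrays came near the differences of Ifitm1, Ifitm3 and Ifitm6. The nearest measured probe before the cluster, that of Pgghg, a gene for a collagen-processing glucosidase listed as Athl1, had signals of 356 in S100A4-positive and 508 in S100A4-negative cells and a difference of 0.12 ± 0.20. On the other side B4galnt4, a glycosyltransferase gene seen in S100A4-negative cells alone, was at least 5.59-fold lower at the brighter of its probes, and the desmosome gene Pkp3 and the inhibitory receptor gene Sigirr were at -0.22 and -0.35. Farther out, the proteasome gene Psmd13 was at 0.04, the mitochondrial deacetylase gene Sirt3 at 0.41, Ric8a at 0.30 and Odf3 at -0.01. The 20 probes of 16 other genes measured on both arrays within that distance had a median of 0.08 and a range from -2.17 for Lrrc56 to 1.89 for Irf7. Of those 20 probes 3 were at least 2-fold higher, namely those of the vesicle transport gene Bet1l (1.09) and both of Irf7 (1.51 and 1.89), and 3 were at least 2-fold lower, those of Lrrc56, Rassf7 (-1.85) and Lmntd2 (-1.33). The inflammasome sensor gene Nlrp6 was well above background in S100A4-negative cells alone, with 6.37 in S100A4-positive and 19.0 in S100A4-negative cells, too dim for a fold. Among probes seen in S100A4-positive cells alone, the largest bound was 2.05 on the log2 scale, for BC024386. Among those seen in S100A4-negative cells alone, the widest bounds were -2.73 for Ano9, -2.48 for B4galnt4 and -2.35 for Urah.

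**Figure D4:**
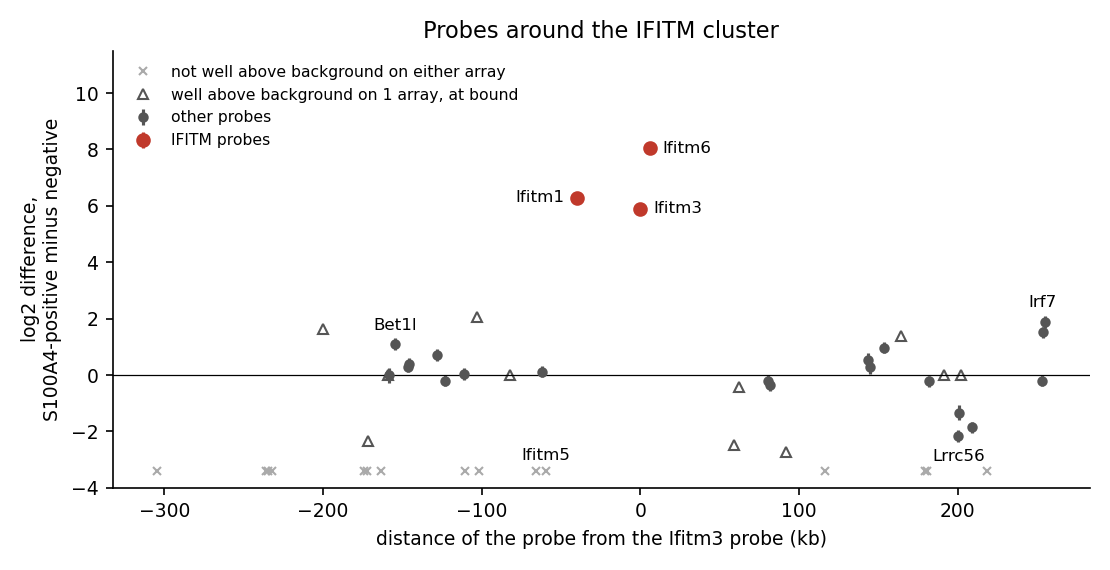
Log2 difference (S100A4-positive minus S100A4-negative) of each probe within 250 kb of the chromosome 7 IFITM cluster, against its distance from the Ifitm3 probe in kb, with the scanner error as bars; triangles are probes well above background on 1 array, at their bound (0 where the bound gives no fold), and crosses, placed at the foot without a value, are probes well above background on neither. Ifitm1, Ifitm3 and Ifitm6 lie at 5.89 to 8.05, and the other probes measured on both arrays between -2.17 and 1.89.

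Promoter sequence was set beside these values because interferon acts on such genes through short elements near their start. RefSeq promoters (GRCm38.p6 build, 250 bases before to 50 after the gene start) were found for all 6 members. The core of the interferon-stimulated response element, taken as GAAA, any 2 bases and GAAA again and searched on both strands, matched in 3.44% of 32851 promoter entries, and the gamma-activated element TTCNNNGAA, which reads the same on both strands, in 8.3%. Ifitm3 had 2 matches to the core, starting at bases 3 and 20 after the gene start, and 1 to the gamma-activated element at base 14, which overlaps the later core match. Ifitm2 had 1 core match, 46 bases before the start. Ifitm6 had none to the core and 1 to the gamma-activated element, 10 bases before the start, and Ifitm1, Ifitm5 and Ifitm7 had no match to either in these windows. The promoters of Ifitm3, with the most matches, and of Ifitm6, with the widest difference, are printed from 180 bases before to 30 after the start, at chr7:141010715-141010924 and chr7:141016863-141017072 (both minus strand, GRCm38.p6), with all matches in capitals.
Ifitm3: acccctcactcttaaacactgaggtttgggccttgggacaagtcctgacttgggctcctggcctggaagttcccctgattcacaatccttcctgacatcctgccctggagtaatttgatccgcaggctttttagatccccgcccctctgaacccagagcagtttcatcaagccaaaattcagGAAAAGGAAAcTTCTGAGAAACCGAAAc
Ifitm6: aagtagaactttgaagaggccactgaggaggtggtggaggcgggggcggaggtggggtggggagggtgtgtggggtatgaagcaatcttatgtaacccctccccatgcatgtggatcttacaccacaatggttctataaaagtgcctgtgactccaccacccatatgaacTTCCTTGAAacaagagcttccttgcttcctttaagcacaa
Among the most raised probes stood that of Ifitm3, with core matches, and those of Ifitm1, Ifitm6 and Ifitm7 (repeat-free probe), without. Ifitm2, with a match, was not measured, and Ifitm5, without one, was not well above background on either array. Over all 394 genes measured on both arrays with a core match in the promoter, 20.1% were at least 2-fold higher and the median difference was 0.09, against 17.3% and -0.02 over the 10297 with a promoter entry.

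Genes of the interferon pathway around the IFITM genes went both ways, more of them higher than lower on the 75th percentile scale. Ligands, receptors, sensors and other induced genes were taken as 4 lists of 64 genes, of which 58 were well above background on at least 1 array. In S100A4-positive cells 23 of them reached a 2-fold higher signal and 5 a 2-fold lower one, and the median difference was 0.63, where genes seen on 1 array are taken at their bound. Over 15279 genes treated in the same way, 21.4% were 2-fold higher or more, 17.0% were 2-fold lower or more and 61.6% lay between, around a median of 0.01. With spike-in scaling the median of the 4 lists was -1.88, and with no scaling it was -0.0029, so its direction holds for the 75th percentile scale and for quantile (0.57) and loess (0.62) normalization.

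Among the ligands, Ifnb1, the interferon beta gene, read 388 in S100A4-positive cells and was not well above background in S100A4-negative cells (3.19), which made it at least 37.3-fold higher. Ifnl3, an interferon lambda gene, had signals of 226 in S100A4-positive and 115 in S100A4-negative cells (difference 1.61 ± 0.21), and Ifnk was at least 4.49-fold higher. Ifng, the interferon gamma gene of T and natural killer cells, was lower, with 155 in S100A4-positive and 718 in S100A4-negative cells (-1.58 ± 0.21). The alpha interferon genes Ifna1, Ifna2, Ifna4 and Ifna5 and the epithelial interferon gene Ifne were not above background on either array, Ifnab was so in S100A4-negative cells alone with no fold to give, and Ifnl2 was not analysed here.

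Of 15 receptor and signalling genes, all measured on both arrays, 4 passed 2-fold upward and 1 downward in S100A4-positive cells. Ifnar2, a chain of the type I interferon receptor, was at 2.33 (0.98 at its other probe), Usp18, a brake on that receptor, at 1.98, Ifngr1, the ligand-binding chain of the interferon gamma receptor, at 1.64 and the kinase gene Jak2 at 1.12. Ifnlr1, the interferon lambda receptor gene of epithelium, was at -1.90 and the kinase gene Jak1, within 2-fold, at -0.81. Stat2 and Irf9, whose products carry the type I signal to the nucleus, were at 0.03 and -0.22, both within 2-fold. Of 14 genes for regulatory factors and sensors 5 were higher and 2 lower at the brightest probe of each. Some genes counted within 2-fold passed it at another probe, namely Irf5 (0.18, other probe 2.15) and Irf8 (0.62, other probe 1.16). Among the receptor genes this held for Ifnar1 (0.52, other probes from 0.43 to 1.52). The sensor genes Tlr7, Ifih1 and Cgas were at 1.85, 1.69 and 1.55 (0.95 at another Cgas probe), Irf7, the factor that amplifies type I interferon production, at 1.51, and Tlr3 was at least 3.08-fold higher. Irf2, which represses interferon-induced genes, was at -1.87 and Mavs, the adaptor of the cytosolic RNA sensors, at -1.78.

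Other interferon-induced restriction factors went up, down or neither, and none of those measured on both arrays reached the IFITM differences. Of 24 genes 11 were past 2-fold higher, 1 was past 2-fold lower and 12 lay within 2-fold, around a median of 0.75. Bst2, which tethers budding virions to the cell, had signals of 19818 in S100A4-positive and 1704 in S100A4-negative cells (4.17 ± 0.20). Rsad2, the viperin gene, read 367 in S100A4-positive and 44.2 in S100A4-negative cells (3.69 ± 0.23), and Mx1, a dynamin-like GTPase gene, read 638 in S100A4-positive and 127 in S100A4-negative cells (2.97 ± 0.21). Ch25h, whose sterol product hinders membrane fusion, was at least 9.31-fold and Ifit1 at least 4.30-fold higher, neither being well above background in S100A4-negative cells. Within 2-fold lay Ifit2 (-0.06), Oas2 (0.01), Zc3hav1 (-0.37), Samhd1 (-0.69) and Trim30a (0.86, with other probes from -0.12 to 1.26). The cytidine deaminase gene Apobec3 was at -1.12, with other probes from -1.59 to -0.53. Of the 21 genes in this list with a promoter entry, 14 held the response element core that Ifitm1 and Ifitm6 lacked in the same window.

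**Figure D5:**
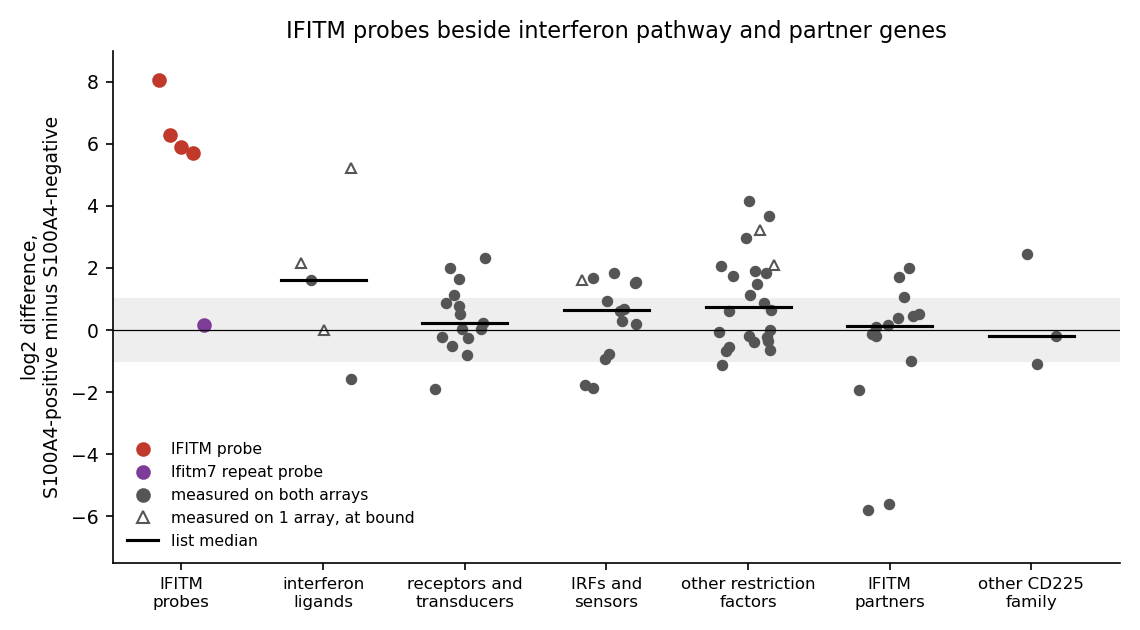
Log2 difference (S100A4-positive minus S100A4-negative) of the IFITM probes and of single genes in 4 interferon lists, the list of IFITM partners and the other CD225 family; triangles are genes measured on 1 array at their bound, bars are list medians and the grey band marks less than 2-fold. The 4 IFITM probes without the repeat lie at 5.69 to 8.05, and the highest other gene measured on both arrays is Bst2 at 4.17.

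Genes for proteins known to bind or modify IFITM proteins passed 2-fold in shares near those of all genes, but their widest differences were downward. Of 14 measured, 3 were past 2-fold upward and 3 past 2-fold downward, beside the 21.4% and 17.0% of all genes, and the median was 0.13 (-2.39 with spike-in scaling). Past 4-fold, 0 were higher and 2 lower, beside 9.88% and 4.98% of all genes. Cd9, a tetraspanin gene, was at 1.99, Nedd4, a ubiquitin ligase that marks IFITM3 for turnover in human cells, at 1.72, and Setd7, a methyltransferase that acts on human IFITM3, at 1.07. Cr2, a complement receptor gene of B cells, had signals of 158 in S100A4-positive and 12067 in S100A4-negative cells (-5.62 ± 0.21). Cd81 itself lay within 2-fold at 0.51, with 9326 in S100A4-positive and 10172 in S100A4-negative cells. Zmpste24, a protease that acts with IFITM proteins against viruses, was at 0.46, Vapa at 0.40, the palmitoyltransferase gene Zdhhc20 at 0.15 and its relative Zdhhc2 at -1.95 (-3.0 at another probe), and Fkbp11, the partner of IFITM5 in osteoblasts, was not above background on either array.

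Relatives that share the CD225 domain but not the interferon response were mostly at background. Of 8 such genes 5 were not above background on either array, namely Ifitm10, Tmem233, Prrt2, Trarg1 and Syndig1. For scale, 15279 of the 24892 genes named on the array were well above background on at least 1 array. Prrt1, a gene best known from neurons, was higher, with 3406 in S100A4-positive and 959 in S100A4-negative cells (2.46 ± 0.20). Tmem91 was at -0.20 ± 0.22 and Tmem265 at -1.10 ± 0.29.

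Markers of several cell types moved with the IFITM genes. All 11 macrophage and monocyte markers were at least 2-fold higher in S100A4-positive cells. Their summed scaled signal was 736 in S100A4-positive and 31.9 in S100A4-negative cells. At the brightest probe of each, those measured on both arrays differed by 2.78 for Ly6c2 to 7.13 for C1qa. Other probes fell outside that range, at 1.54 for Csf1r (6.36 at its brightest) and 8.18 for Lyz2 (6.31 at its brightest). Of 7 classical dendritic cell markers 6 were at least 2-fold higher, the other, Xcr1, being at background on both arrays, and the sum was 93.8 in S100A4-positive and 7.49 in S100A4-negative cells. Of 5 endothelial markers 3 (Cdh5, Kdr and Emcn) were higher and seen in S100A4-positive cells alone, Pecam1 was at -0.25 and Tek at background, with sums of 2.07 in S100A4-positive and 0.567 in S100A4-negative cells. Neutrophil markers went both ways, with 2 of 7 higher, 3 lower, S100a9 at -1.93, and sums of 125 in S100A4-positive and 83.9 in S100A4-negative cells. Nearly all of both sums came from Csf3r, a receptor gene that was at 0.61, and without it they were 1.89 in S100A4-positive and 3.10 in S100A4-negative cells. Fibroblast markers did too, with 2 of 5 higher, 1 lower, Pdgfra at background and sums of 2.00 in S100A4-positive and 0.839 in S100A4-negative cells.

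Lymphocyte and epithelial markers went the other way. All 5 B cell markers were at least 2-fold lower, with sums of 18.7 in S100A4-positive and 361 in S100A4-negative cells. Of 5 T cell markers 3 were lower, Cd4 and Cd8a staying within 2-fold, with sums of 13.6 in S100A4-positive and 60.5 in S100A4-negative cells. Of 5 epithelial markers 3 were lower and 1, Cdh1, was higher, with sums of 2.69 in S100A4-positive and 16.2 in S100A4-negative cells. The part of any of these cell types in the IFITM differences was not tested.

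With 2 arrays, likeness of pattern means only a similar difference. Among 11895 named genes measured on both arrays, the nearest to Ifitm6 were Clec7a (8.09) and Csf2 (7.85), the only 2 within its scanner error. The nearest to Ifitm1 were Pf4 (6.31) and Lyz2 (6.31), among 19 genes within its error, though another probe of Lyz2 was at 8.18. Ifitm3 stood nearest to Crispld2 and Cfb (both 5.89) among 31, and the repeat-free probe of Ifitm7 to Sphk1 (5.69) and Tbc1d8 (5.67) among 36. The repeat probe of Ifitm7 had 1850 genes within its error.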

How the data were processed

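The deposited scanner tables hold 1 processed signal intensity per spot with its error, which the authors obtained with Agilent Feature Extraction 10.7.1.1 on array design 74809, per the file headers (the submitters' processing notes name 9.5.1.1); the software subtracts background and spatial trends and does not normalize between arrays. Its flags (another kind of deposited value, 0 or 1) for spots well above background and for outliers were taken as given. Of 59305 non-control spots, 52.3% on the S100A4-positive and 53.3% on the S100A4-negative array were well above background and none was saturated; 80 and 138 outlier spots in the same order were dropped. The analysis took log2 of each signal and subtracted that of the 75th percentile of each array (287.3 on the S100A4-positive, 445.9 on the S100A4-negative array). Probes were named through RefSeq accessions (33903), symbols (9458) or synonyms (488) of a GRCm38 table, used for names alone, and 12756 were left unnamed; members went by the gene name in the files. A gene took its brightest probe well above background on at least 1 array. Where a gene was well above background on only 1 array, the other value was set at a bound, the higher of its own signal and the lowest signal well above background.

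The deposited value table, an intensity per probe with a median of 19.6 in both columns and made by steps not given in the sources used here, served as an alternative. With 1 array per group no test is possible, and counts past 2-fold and 4-fold stand in. The number of arrays limits the precision: 289 probes spotted in replicate gave a standard deviation of 0.11 (log2) for a difference of single spots, and the scanner error was 0.20. These leave out mice, sorts and labelling. Members, lists and alternatives were chosen with earlier results of these data known; the text names all members, and all neighbours of the cluster, and from each gene list other than the cell type markers at least the 2 widest differences each way and every gene seen on 1 array alone, except for items withheld, which are counted in their lists and not reported here. Steps ran in Python 3.11.15 (numpy 2.4.6, pandas 2.3.3, Biopython 1.88, matplotlib 3.10.9) and R 4.3.3 with limma 3.58.1, and were tested on simulated data with planted differences.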

Additional observations from a re-analysis of the deposited data

How the results depend on the processing

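The differences of the 4 repeat-free probes kept their direction under all 7 alternative scalings, background corrections and sources, from 3.77 to 6.34 for Ifitm1, 3.37 to 5.90 for Ifitm3, 5.53 to 8.15 for Ifitm6 and 3.17 to 5.70 for Ifitm7, the lowest always with spike-in scaling. The Ifitm7 repeat probe, near 0, turned with no scaling (-0.47), spike-in scaling (-2.35), quantile normalization (-0.059) and the deposited table (-0.0843). IFITM genes at least 2-fold higher numbered 3 or 4 under every setting, and spike-in scaling put 1, Ifitm7 at its repeat probe, at least 2-fold lower. With no filter on dim probes the count was 4 of 5. There it took in Ifitm5, which was not well above background on either array, while Ifitm7 stayed at its repeat probe. Without the TG repeat probes, an alternative chosen after seeing the data, 4 of 4 were higher. No paired analysis was possible because each group is 1 array.

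With spike-in scaling, 591 genes were at least 2-fold higher, 12707 lower, 330 at least 4-fold higher and 10202 lower, against 3266, 2598, 1509 and 761 with the 75th percentile. The interferon lists then had 3 genes higher and 39 lower (median -1.88), the partner list 0 higher and 12 lower (-2.39) and the other CD225 family 0 higher and 2 lower (-2.71). With no scaling, 1967 genes were at least 2-fold higher, 5342 lower and 1596 at least 4-fold lower, 14 interferon genes were lower (median -0.0029), and the medians of the partners and the CD225 family were -0.51 and -0.83. Both settings shift every difference by a constant. Among genes past 4-fold, 66.5% were higher with the 75th percentile, 39.4% with no scaling, 3.13% with spike-ins and 53.3% in the deposited table, where 1170 were 4-fold lower. Normexp gave 865 genes 4-fold higher, 394 lower and 0 of the CD225 family lower. Quantile normalization put the CD225 median at -0.41. With probes well above background on both arrays alone, 977 genes were 4-fold higher. With no filter on dim probes, the CD225 family had 2 higher and a median of 0.22, as more genes entered. Signal over background limits Ifitm5 and the size for Ifitm6.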
